A study of Mus musculus with 11 samples.

Results

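The genes described here are Foxp3 and 7 further genes that mark the identity of regulatory T (Treg) cells, namely Ikzf2, Ikzf4, Nrp1, Lrrc32, Gpr83, Izumo1r and Capg. They were chosen by name, and each is 1 row of a count table of 52997 genes. All 8 passed the filter on low counts, as did 12932 genes in all. The table holds 11 Smart-seq2 libraries, each from 1000 clonotype+ Treg cells that were sorted from the pooled spleen and lymph nodes (Spl/LN) or from the visceral adipose tissue (VAT) of recipient mice. The comparisons ask how clonal Treg cells of both sites differed and how they answered their agonist peptide in vivo. Fat1562 is that peptide, a surrogate that differs by 1 residue from a peptide found by screening a library against the TCR. It was found among point mutants tested for T cell activation.

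The sorted cells of every group were CD45.2+ and carried the vTreg53 transgenes (label: vTreg53 Tg+), a TCR α and β chain pair from 1 VAT-Treg clone, and came from male Foxp3-GFP KI/y donors on the C57BL/6 background. They had been transferred into male CD45.1+ B6 mice, which kept their own lymphocytes, and the labels give an age of 15 weeks. The mice of the adjuvant/Fat1562 groups were primed with peptide in CFA 6 weeks after the transfer and boosted with peptide in IFA 1 week later. The control mice received the adjuvants without peptide by the methods. The labels call them unimmunized and name PBS, and they are called adjuvant alone here. If the labels hold, effects of adjuvant and of peptide cannot be told apart. Below, a change with peptide or with Fat1562 means adjuvant/Fat1562 against these controls. There were 3 libraries of Spl/LN with adjuvant alone, 3 of Spl/LN with adjuvant/Fat1562, 2 of VAT with adjuvant alone and 3 of VAT with adjuvant/Fat1562. One TCR clone stands for the Treg compartment in all of them, and the labels do not say which libraries share a mouse, so p-values measure the spread between these libraries.

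Treg cells are CD4+ T cells that restrain immune responses, and their identity rests on the transcription factor Foxp3, without which mice and humans develop fatal autoimmunity. Around Foxp3 stands a set of genes that Treg cells express more highly than conventional CD4+ T cells. It includes the Ikaros-family factors Helios and Eos, surface receptors such as neuropilin-1 and GARP, and genes of less defined function. In VAT, a distinct Treg population accumulates that controls adipose inflammation and depends on its TCR.

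Total counts per library ran from 4490242 to 6570057, and edgeR's common biological coefficient of variation was 19.1%. Levels below are normalized counts (raw counts rescaled with TMM factors to a library of mean size), with the SD between libraries. Cd4 had 2114 to 3518 and Cd3e 3844 to 5871 normalized counts over the 11 libraries, against 0 to 6.39 for Cd8a and 66.3 to 193.3 for Cd8b1. Both T cell genes moved with the groups: Cd4 rose with peptide in Spl/LN, from 2396 ± 244 to 3397 ± 134 (log2 fold change 0.50, adjusted p = 0.00184 by edgeR), and Cd3e was lower in VAT with adjuvant alone (−0.26, adjusted p = 0.0435) and after Fat1562 (−0.23, adjusted p = 0.0447) and higher with peptide in VAT (0.30, adjusted p = 0.0367). The 3 calls for Cd3e were made in 7, 11 and 10 of 19 alternatives. The first and the last were lost, among others, without replicate 2 of VAT with adjuvant alone. Of the 6 macrophage markers examined, the summed level was 18.1 to 113.8, of the 4 adipocyte markers 0.953 to 17.5, and of the 5 fibroblast markers 15.0 to 46.1. The 5 dendritic cell markers summed to 46.9 to 242.1 in Spl/LN and 165.9 to 195.2 in VAT with adjuvant alone, and to 26.4 to 43.8 and 106.8 to 138.6 after Fat1562. The 3 NK cell markers summed to 17.2 to 31.2 in Spl/LN after Fat1562 and to at most 9.13 in the other groups. Cd8b1 was highest in VAT with adjuvant alone, at 171.3 and 193.3. The 4 endothelial markers summed to 463.5 to 516.8 in Spl/LN and 242.0 to 298.2 in VAT with adjuvant alone. After Fat1562 they summed to 498.0 to 574.0 and 412.0 to 594.3. Pecam1 made 234.5 to 589.2 of these sums. The 6 B cell markers also differed between the groups, with sums of 17350.2 to 18414 in Spl/LN with adjuvant alone, 12204.5 to 13320 in Spl/LN after Fat1562, 6591 to 8836 in VAT after Fat1562, and 6894 and 39026 in VAT with adjuvant alone. Ighm made 6015 to 28547 of them and Igkc 100.1 to 10320.1, while Cd79b had 47.2 to 203.6, Cd79a 6.41 to 25.5 and Ms4a1 0 to 6.51. Replicate 2 of VAT with adjuvant alone was the highest library for both immunoglobulin genes. The called results of the 8 genes that use it are given below without it as well, and for other genes the text says where a call was lost without it. The share of mitochondrial counts was 1.04 to 1.11% and 1.09 to 1.18% in the adjuvant-alone groups of Spl/LN and VAT, and 0.775 to 0.826% and 0.856 to 0.982% after Fat1562. The part of these differences in the results was not tested.

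Per kilobase of exon, Capg and Foxp3 were the most abundant of the 8 genes in every group, and Gpr83 the least. Capg had a level of 2413 to 3451 normalized counts per kilobase in the 4 group means and Foxp3 of 1551 to 2148, which placed Foxp3 above 98.9 to 99.1% of the tested genes. Izumo1r followed with 385 to 1476 per kilobase. Ikzf2 had 327 to 374 per kilobase, Nrp1 72.6 to 248.1, Ikzf4 172 to 216 and Lrrc32 58.1 to 244.7. Gpr83 had 48.6 and 29.8 per kilobase in the Spl/LN groups and 5.13 and 5.92 in the VAT groups, where it stood above only 15.1 and 17.0% of the tested genes.

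**Figure D1:**
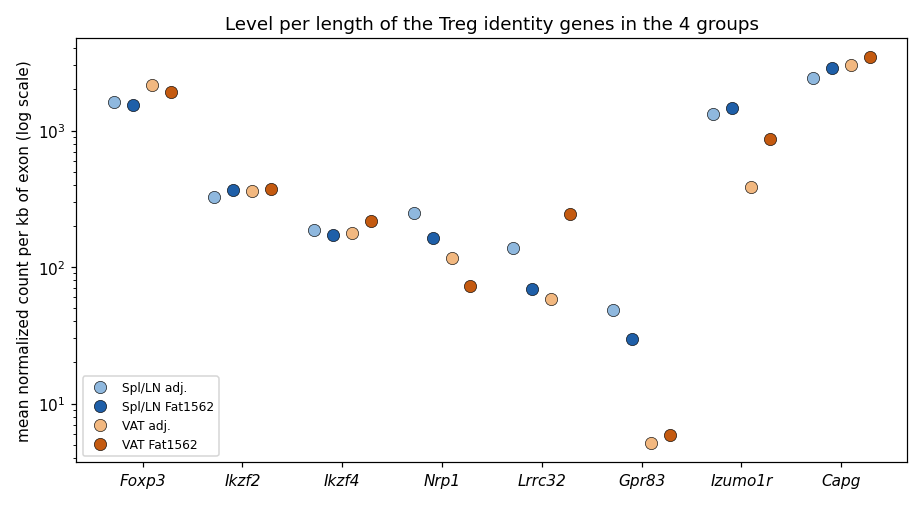
Mean level of the 8 Treg identity genes in the 4 groups, in normalized counts per kilobase of exon on a log axis, with 1 point per group mean (n = 3 or 2 libraries). Capg and Foxp3 lie at 1551 or above in every group, Izumo1r falls from 1328 in Spl/LN to 385 in VAT with adjuvant alone, and Gpr83 lies at 5.13 and 5.92 in the VAT groups.

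With adjuvant alone, 6 of the 8 genes differed between the tissues at an adjusted p under 0.05 (quasi-likelihood test of edgeR, Benjamini-Hochberg over all tested genes). Foxp3 and Capg were higher in VAT, and Nrp1, Lrrc32, Gpr83 and Izumo1r were lower. Without replicate 2 of VAT with adjuvant alone, 6 of the 8 were again called, with the same directions. Over all tested genes 16.3% were called in this comparison, 9.09% higher and 7.18% lower. After adjuvant/Fat1562, which compares entirely separate libraries, 6 genes were again called, against 15.0% of all tested genes (8.26% higher and 6.73% lower). These were Foxp3, Capg and Lrrc32 as higher in VAT and Nrp1, Gpr83 and Izumo1r as lower. Within VAT, Lrrc32 and Izumo1r were higher and Nrp1 lower after Fat1562, 3 of 8 genes against 8.30% of all tested genes (4.33% higher and 3.97% lower). Within Spl/LN, Nrp1 and Lrrc32 were lower after Fat1562, 2 of 8 genes against 3.98% of all tested genes (2.58% higher and 1.40% lower). The change with Fat1562 differed between the tissues for Lrrc32 and Izumo1r, by the interaction term, which called 3.72% of all tested genes (1.70% higher and 2.02% lower). The comparisons within VAT and within Spl/LN reuse the libraries of the tissue comparisons. The median log2 fold change over all tested genes was −0.03 between the tissues with adjuvant alone, −0.01 after Fat1562, 0.01 with peptide in VAT and −5.45e-06 with peptide in Spl/LN.

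**Figure D2:**
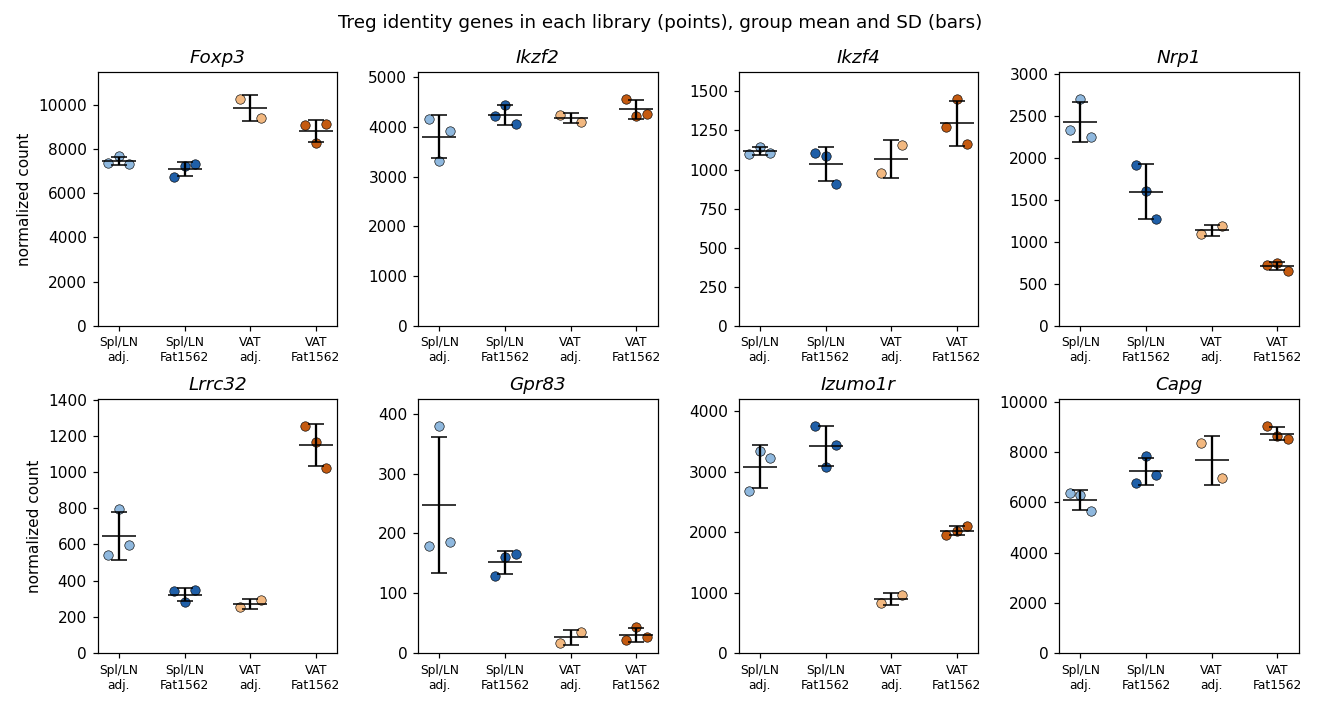
Normalized count of each Treg identity gene in every library (points), by group, with the group mean (line) and SD (bars). The points of VAT lie above those of Spl/LN for Foxp3 and below them for Nrp1 under each immunization, Gpr83 is at 17.3 to 42.7 in the 5 VAT libraries, and Lrrc32 is at 1022 to 1252 in VAT after Fat1562 and at 253 and 292 in VAT with adjuvant alone.

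Foxp3 (ENSMUSG00000039521.13) lies on the plus strand at chrX:7573644-7595245 of GRCm38 and encodes the lineage-defining forkhead factor of Treg cells. The donors carried Foxp3-GFP and Treg cells were sorted for transfer and again from the recipients, so the presence of Foxp3 is no finding, and the part of the sort in its level was not tested. The sequence around an annotated RefSeq start of Foxp3 is shown because the level of this gene defines the cells. It is the plus strand of GRCm38.p6 at chrX:7579426-7579725, from 5′ to 3′, with the TATAAA motif in capitals.
Foxp3: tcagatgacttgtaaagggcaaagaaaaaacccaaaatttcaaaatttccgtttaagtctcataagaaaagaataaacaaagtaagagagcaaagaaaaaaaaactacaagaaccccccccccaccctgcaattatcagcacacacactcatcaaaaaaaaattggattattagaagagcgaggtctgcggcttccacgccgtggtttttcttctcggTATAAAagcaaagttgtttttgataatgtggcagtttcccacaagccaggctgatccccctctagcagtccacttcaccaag

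In Spl/LN with adjuvant alone, Foxp3 had 7342.5, 7663 and 7315 normalized counts in replicates 1 to 3. In VAT with adjuvant alone it had 10249.9 and 9412. With adjuvant/Fat1562 the counts were 6747, 7243 and 7311 in Spl/LN and 9092, 8251.5 and 9111 in VAT. By these normalized counts, all 5 VAT libraries stood above all 6 Spl/LN libraries. The TMM factors used were 1.005 to 1.066 in Spl/LN and 0.9345 to 0.987 in VAT. By library total alone the tissues overlapped. Replicate 2 of VAT with Fat1562 (8109 of 5433465 counts) then lay just below replicate 2 of Spl/LN with adjuvant alone (7357 of 4915820). In these bulk samples, fewer cells with a transcript and less of it per cell cannot be told apart, for Foxp3 and for the genes below. The tissue difference was 1.32-fold with adjuvant alone, a log2 fold change of 0.40 (SE 0.0762, adjusted p = 0.00119 by edgeR). It was 1.24-fold after Fat1562, a log2 fold change of 0.31 (SE 0.0687, adjusted p = 0.00465). Without replicate 2 of VAT with adjuvant alone the first was 0.46 (adjusted p = 0.00368). Both calls were lost with quantile normalization and limma, at log2 fold changes of 0.14 (adjusted p = 0.274) and 0.19 (adjusted p = 0.0760). Fat1562 immunization gave no call for Foxp3, although its libraries did not overlap in VAT or, narrowly (7315 against 7311), in Spl/LN. Its log2 fold change with peptide was −0.16 in VAT (95% confidence interval −0.32 to 0.0046, adjusted p = 0.253) and −0.07 in Spl/LN (−0.21 to 0.078, adjusted p = 0.662). The interaction was −0.09 (−0.31 to 0.13, adjusted p = 0.741).

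Foxp3 shares exons with its neighbours, and 25.2% of the 38-base stretches of its transcripts occur, on either strand, in other genes of GENCODE vM21. The long noncoding RNA Flicr overlaps 18.6% of its exon bases on the same strand, and Ccdc22 overlaps 12.9% on the opposite strand. How the counting assigned such reads, and whether it used strand, is not given in the sources used here. Flicr had 199.8 ± 37.1 normalized counts in Spl/LN and 346.9 ± 70.4 in VAT with adjuvant alone (log2 fold change 0.80, SE 0.208, adjusted p = 0.0134), a call lost without replicate 2 of VAT (adjusted p = 0.193). After Fat1562 it had 237.7 ± 42.7 and 271.4 ± 38.7 (log2 fold change 0.19, adjusted p = 0.580). The reads counted for both genes are therefore uncertain where they overlap.

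Ikzf2 (chr1:69531214-69687245, minus strand) encodes Helios and Ikzf4 (chr10:128630843-128645991, minus strand) encodes Eos, zinc finger factors of the Ikaros family that work beside Foxp3 in gene repression. Neither was called in any of the 5 comparisons. Ikzf2 had 4156, 3316 and 3924 normalized counts in Spl/LN and 4246 and 4099.8 in VAT with adjuvant alone. After Fat1562 it had 4215, 4443 and 4059.85 in Spl/LN and 4558, 4221 and 4268 in VAT. The 4 groups overlapped, and each group overlapped its neighbour in the order of means. The log2 fold change of Ikzf2 between VAT and Spl/LN was 0.14 (95% confidence interval −0.064 to 0.33, adjusted p = 0.380) with adjuvant alone and 0.04 (−0.14 to 0.22, adjusted p = 0.836) after Fat1562. With Fat1562 it was 0.06 (−0.14 to 0.26) in VAT and 0.16 (−0.021 to 0.34) in Spl/LN.

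Ikzf4 had 1103, 1146 and 1105 normalized counts in Spl/LN and 980.2 and 1155 in VAT with adjuvant alone, where the groups overlapped. After Fat1562 it had 1104, 1088 and 909 in Spl/LN and 1271, 1451 and 1164 in VAT, where they did not. The difference after Fat1562 was 0.33 on the log2 scale (SE 0.109, 95% confidence interval 0.097 to 0.56) and missed the threshold with an adjusted p of 0.0526 by edgeR. It passed the threshold in 7 of 19 alternatives, among them DESeq2 (adjusted p = 0.0272) and the fits without replicate 3 of VAT with Fat1562 (adjusted p = 0.0324) or without replicate 3 of Spl/LN with adjuvant alone (adjusted p = 0.0440). With adjuvant alone the tissue difference was −0.07 (−0.32 to 0.19, adjusted p = 0.774). The change of Ikzf4 with peptide was 0.28 in VAT (0.020 to 0.54, adjusted p = 0.195) and −0.11 in Spl/LN (−0.34 to 0.12, adjusted p = 0.636).

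Of the other Ikaros family members and the corepressor subunits they recruit, all 12 genes listed could be tested. With adjuvant alone 1 was called higher and 2 lower in VAT, with a median log2 fold change of −0.10. After Fat1562 1 was higher and 0 lower, and with Fat1562 0 were called in either tissue by edgeR, with 2 in VAT and 1 in Spl/LN at an unadjusted p under 0.05. DESeq2 called 0 in VAT and 1 in Spl/LN. The lower genes were Ikzf3 (Aiolos), at 1741 ± 55 in VAT and 2245 ± 207 in Spl/LN (log2 fold change −0.37, SE 0.111, adjusted p = 0.0303), and Mbd3, a subunit of the NuRD complex, at −0.90 (SE 0.255, adjusted p = 0.0218). Both calls were lost without replicate 1 of Spl/LN or replicate 2 of VAT with adjuvant alone, and that of Ikzf3 also without replicate 1 of VAT. The higher gene was the corepressor Ctbp2 in both comparisons, at log2 fold changes of 2.01 and 2.17 at means of at most 43.0 normalized counts, named after its values were seen and called in 11 of 18 and 14 of 17 alternatives, the first call being lost without either VAT library. The same fit called 16.3% and 15.0% of all tested genes between the tissues. With peptide it called 8.30% of them in VAT and 3.98% in Spl/LN.

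Nrp1 (chr8:128358604-128503363, plus strand) encodes neuropilin-1, a coreceptor for semaphorins and VEGF that marks thymus-derived Treg cells and stabilizes them. The start region of Nrp1, called lower in all 4 pairwise comparisons, is at chr8:128358823-128359122 of GRCm38.p6, plus strand, with its GC box (GGGCGG) in capitals.
Nrp1: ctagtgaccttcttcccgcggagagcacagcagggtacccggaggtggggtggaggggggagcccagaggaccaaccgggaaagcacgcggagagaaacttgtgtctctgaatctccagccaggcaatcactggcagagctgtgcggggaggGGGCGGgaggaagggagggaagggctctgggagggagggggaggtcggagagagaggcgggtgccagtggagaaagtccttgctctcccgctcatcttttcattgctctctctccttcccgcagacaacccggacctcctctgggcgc

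Nrp1 had 2333, 2703 and 2247 normalized counts in Spl/LN with adjuvant alone and 1920.3, 1611 and 1268 after Fat1562. In VAT it had 1091 and 1186 with adjuvant alone and 728, 749 and 654 after Fat1562. The 4 groups did not overlap and stood in the order Spl/LN with adjuvant alone, Spl/LN with Fat1562, VAT with adjuvant alone and VAT with Fat1562. Between the tissues Nrp1 was 2.13-fold lower in VAT with adjuvant alone (log2 fold change −1.09, SE 0.145, adjusted p = 3.54e-05) and 2.25-fold lower after Fat1562 (−1.17, SE 0.129, adjusted p = 4.81e-06). Both calls were made in 19 of 19 alternatives, and without replicate 2 of VAT with adjuvant alone the first was −1.16 (adjusted p = 0.000658). With peptide it was 1.60-fold lower in VAT (log2 fold change −0.68, SE 0.142, adjusted p = 0.00544) and 1.52-fold lower in Spl/LN (−0.60, 95% confidence interval −0.87 to −0.34, adjusted p = 0.0104). The first of these calls was lost without replicate 2 of VAT with adjuvant alone (−0.62, adjusted p = 0.0693). The second was lost without replicate 2 of Spl/LN with adjuvant alone (−0.52, adjusted p = 0.0504) or without replicate 2 of Spl/LN with Fat1562 (−0.61, adjusted p = 0.0554). The interaction for Nrp1 was −0.08 (95% confidence interval −0.48 to 0.32, adjusted p = 0.894).

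Of 22 further genes for neuropilin partners, plexins and semaphorins, 14 could be tested, and Nrp2, the other neuropilin gene, was under the filter. In VAT with adjuvant alone 2 were called higher and 2 lower (median log2 fold change −0.26), and after Fat1562 3 were higher and 1 lower. Plxna1, a plexin that forms semaphorin receptors with neuropilin-1, rose from 57.5 ± 9.2 in Spl/LN to 275.6 ± 24.8 in VAT with adjuvant alone (log2 fold change 2.26, SE 0.301, adjusted p = 3.56e-05). It was also higher after Fat1562 (1.33, adjusted p = 0.00454), and within VAT it fell with peptide (−1.52, adjusted p = 0.00309), the only gene of the 14 that edgeR called there. Plxnd1, another plexin, was higher in VAT in both comparisons, at 0.81 (adjusted p = 0.000723) and 0.95 (adjusted p = 5.67e-05). Sema4a, a semaphorin known as a ligand of neuropilin-1 on Treg cells, was lower in both, at −1.59 (adjusted p = 0.00107) and −1.10 (adjusted p = 0.00782). In Spl/LN with peptide 0 of the 14 were called by edgeR and by DESeq2, with 4 at an unadjusted p under 0.05. Among all tested genes, edgeR called 16.3% and 15.0% between the tissues, and 8.30% and 3.98% with peptide in VAT and Spl/LN.

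**Figure D3:**
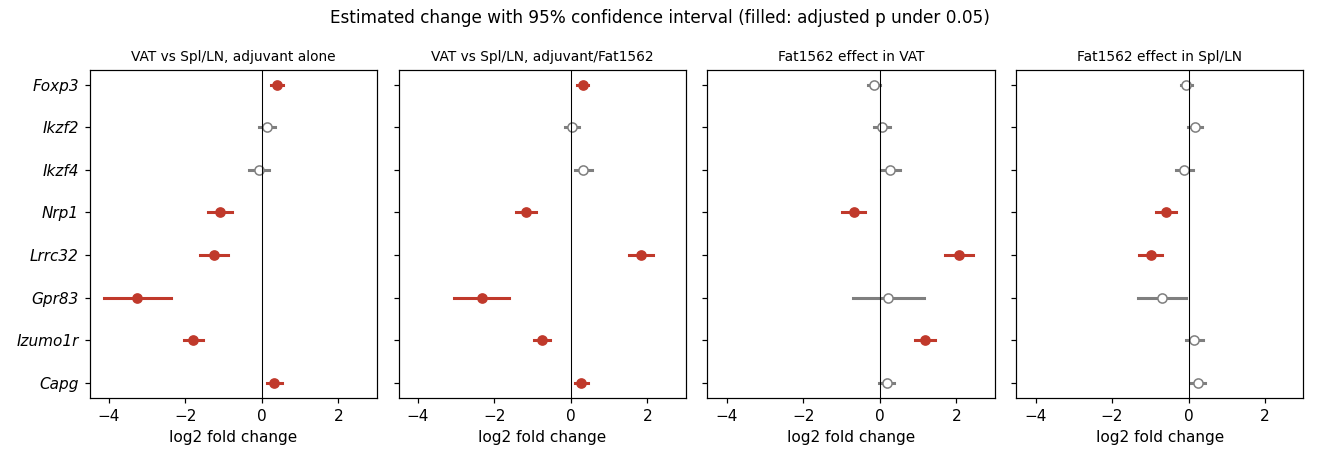
Log2 fold change of each Treg identity gene with its 95% confidence interval in the 4 pairwise comparisons, with filled points at an adjusted p under 0.05 by edgeR. Lrrc32 lies at −1.25 between the tissues with adjuvant alone and at 1.82 after Fat1562, and Ikzf2 and Ikzf4 have open points in all 4 panels.

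Lrrc32 (chr7:98489283-98502181, plus strand) encodes GARP, the receptor that holds latent TGF-β1 on the surface of activated Treg cells. In Spl/LN it had 543, 797 and 597 normalized counts with adjuvant alone and 341, 280.0 and 348 after Fat1562. In VAT it had 253 and 292 with adjuvant alone and 1252, 1167 and 1022 after Fat1562. The 3 VAT libraries after Fat1562 stood above all 8 others, and the 2 VAT libraries with adjuvant alone overlapped Spl/LN after Fat1562 at the bottom of the order. With peptide Lrrc32 rose 4.21-fold in VAT (log2 fold change 2.08, SE 0.176, adjusted p = 1.16e-06) and fell 1.99-fold in Spl/LN (−0.99, SE 0.147, adjusted p = 0.000682). The difference between these changes was 3.07 on the log2 scale (SE 0.228, 95% confidence interval 2.59 to 3.55, adjusted p = 2.53e-06 for the interaction in edgeR). Without replicate 2 of VAT with adjuvant alone it was 3.18 (adjusted p = 2.81e-05).

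The tissue difference of Lrrc32 changed direction between the immunizations. With adjuvant alone it was 2.37-fold lower in VAT (log2 fold change −1.25, SE 0.173, adjusted p = 5.45e-05), and after Fat1562 it was 3.54-fold higher (1.82, SE 0.148, adjusted p = 1.39e-07). Without replicate 2 of VAT with adjuvant alone the change with peptide in VAT was 2.18 (adjusted p = 5.28e-05) and the tissue difference with adjuvant alone was −1.36 (adjusted p = 0.000746). The 5 calls for Lrrc32 were made in every alternative run.

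The genes that activate and answer TGF-β had 18 testable members of 20. In VAT with adjuvant alone 6 were called higher and 0 lower, with a median log2 fold change of 0.19, and after Fat1562 6 were higher and 2 lower. The integrin chain Itgav, which releases active TGF-β when paired with Itgb8, was at 226.4 ± 14.4 in Spl/LN and 1320 ± 62 in VAT with adjuvant alone (log2 fold change 2.54, SE 0.142, adjusted p = 7.47e-10). The nuclear corepressor Tgif1 was higher by 2.55 (SE 0.133, adjusted p = 3.22e-10), and Furin, the protease that cleaves the TGF-β precursor, by 1.48 (adjusted p = 0.00103). Tgfb1 itself was at 80.1 ± 19.9 in Spl/LN and 168.3 ± 14.2 in VAT with adjuvant alone (1.07, SE 0.243, adjusted p = 0.00528), and this call was lost without replicate 2 of VAT. With Fat1562 in VAT 1 member was called higher and 0 lower. This was Itgb8, the β chain of that integrin, which was at 262.4 ± 20.002 in VAT with adjuvant alone and 950.8 ± 250.6 after Fat1562 (1.85, SE 0.200, adjusted p = 1.17e-05). Tgfb1 had a log2 fold change of −0.62 there (adjusted p = 0.137). In Spl/LN with peptide Itgav rose (0.88, SE 0.133, adjusted p = 0.000817) and Itgb8 had 0.04 (adjusted p = 0.933), while Nrros, a second anchor of latent TGF-β, passed with 0.45 (adjusted p = 0.0468) and lost its call in 14 of 19 alternatives, the fit without replicate 2 of VAT with adjuvant alone among them. Among all tested genes, 16.3% and 15.0% were called between the tissues, and 8.30% and 3.98% with peptide in VAT and Spl/LN.

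Gpr83 (chr9:14860210-14870789, plus strand) encodes a neuropeptide receptor, and Izumo1r (chr9:14885814-14903949, minus strand), also called Folr4 or Juno, encodes folate receptor 4 of T cells. The 2 genes lie 15.0 kb apart and point towards each other. Both were lower in VAT, and their start regions in GRCm38.p6, chr9:14859960-14860259 on the plus strand and chr9:14903718-14904017 on the minus strand, are given for comparison, with TATAAA, present only for Gpr83, in capitals.
Gpr83: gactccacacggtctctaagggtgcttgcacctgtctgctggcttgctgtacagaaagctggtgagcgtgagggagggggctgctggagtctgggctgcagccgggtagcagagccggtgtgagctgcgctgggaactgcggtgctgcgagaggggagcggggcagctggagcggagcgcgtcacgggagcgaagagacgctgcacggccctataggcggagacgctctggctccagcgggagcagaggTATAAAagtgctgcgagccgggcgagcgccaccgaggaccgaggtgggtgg
Izumo1r: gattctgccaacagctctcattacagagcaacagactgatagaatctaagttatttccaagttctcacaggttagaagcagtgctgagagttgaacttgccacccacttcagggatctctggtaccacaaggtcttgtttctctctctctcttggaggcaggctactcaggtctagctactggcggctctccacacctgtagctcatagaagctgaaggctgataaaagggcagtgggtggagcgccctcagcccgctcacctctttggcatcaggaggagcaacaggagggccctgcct

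In Spl/LN Gpr83 had 178.4, 379 and 185 normalized counts with adjuvant alone and 129.7, 160.3 and 166 after Fat1562. In VAT it had 17.3 and 34.9 with adjuvant alone and 21.4, 42.7 and 26.4 after Fat1562, from 16 to 42 raw counts per library. All 5 VAT libraries were below all 6 Spl/LN libraries. Gpr83 had the largest tissue difference of the 8 genes under each immunization, 9.54-fold lower in VAT with adjuvant alone (log2 fold change −3.25, SE 0.416, adjusted p = 2.33e-05) and 5.01-fold lower after Fat1562 (−2.32, SE 0.341, adjusted p = 0.000121). Without replicate 2 of VAT with adjuvant alone the first was −3.83 (adjusted p = 0.000210). With peptide Gpr83 gave no call, at 0.23 in VAT (95% confidence interval −0.70 to 1.16, adjusted p = 0.831) and −0.70 in Spl/LN (−1.33 to −0.074, adjusted p = 0.213). The libraries of Spl/LN did not overlap between the immunizations, with the widest spread in the adjuvant-alone group (247.6 ± 113.9).

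In Spl/LN Izumo1r had 2676, 3338 and 3231 normalized counts with adjuvant alone and 3751, 3078 and 3445 after Fat1562. In VAT it had 827 and 959 with adjuvant alone and 1951, 2013 and 2107 after Fat1562. The Spl/LN groups overlapped, and every VAT library with Fat1562 lay between the VAT libraries with adjuvant alone and the Spl/LN libraries. Izumo1r was 3.45-fold lower in VAT with adjuvant alone (log2 fold change −1.79, SE 0.121, adjusted p = 9.12e-09) and 1.69-fold lower after Fat1562 (−0.76, SE 0.100, adjusted p = 3.95e-05). With peptide it rose 2.27-fold in VAT (1.18, SE 0.119, adjusted p = 5.97e-06) and had 0.15 in Spl/LN (95% confidence interval −0.058 to 0.36, adjusted p = 0.452). The interaction was 1.03 (SE 0.153, 0.70 to 1.35, adjusted p = 0.000934). Without replicate 2 of VAT with adjuvant alone the change in VAT was 1.29 (adjusted p = 0.000103), the tissue difference was −1.90 (adjusted p = 2.80e-07) and the interaction was 1.14 (adjusted p = 0.0030).

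Of 16 genes annotated within 150 kb of this pair, 5 were tested, the pair included. This window was chosen after the values of the pair were seen. EdgeR called 16.3% of all tested genes between the tissues with adjuvant alone and 8.30% with peptide in VAT. The nearest tested gene on the other side of Izumo1r, Panx1, an ATP-releasing channel named after its values were seen, was at 540.1 in Spl/LN and 196.2 in VAT with adjuvant alone (log2 fold change −1.46, SE 0.255, adjusted p = 0.000562). With peptide it rose in VAT (1.21, SE 0.254, adjusted p = 0.00586), a call lost without replicate 1 of VAT with adjuvant alone, and after Fat1562 its tissue difference was −0.31 (adjusted p = 0.372). Ankrd49 and Mre11a, on the side of Gpr83, were not called in any of the 5 comparisons. The genes for the ligands and relatives of both receptors could not be described, because 0 of the 5 listed could be tested. Pcsk1n, Izumo1, Folr1 and Folr2 were under the filter, with means of 0 to 5.19 normalized counts. Fam237a had no row under that name in the count table.

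**Figure D4:**
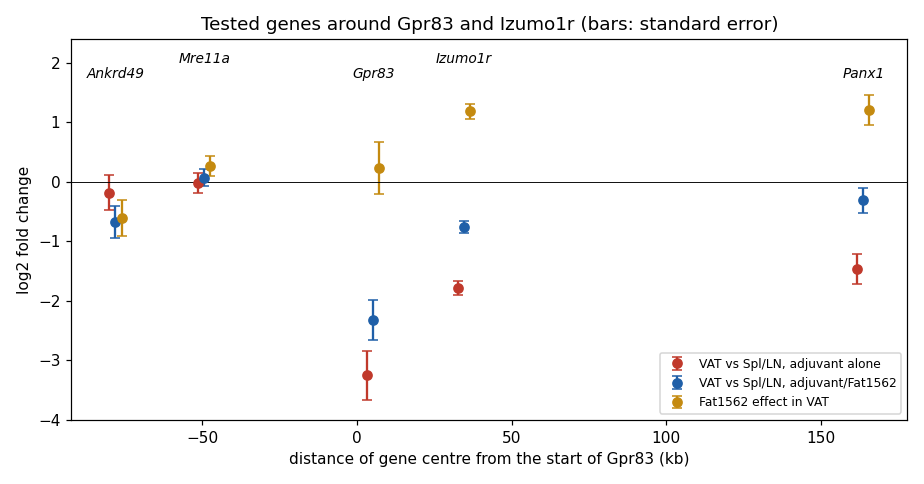
Log2 fold change (points) and its standard error (bars) of the 5 tested genes around Gpr83 and Izumo1r, by the distance of each gene's centre from the start of Gpr83 in kilobases. Gpr83, Izumo1r and Panx1 lie at −3.25, −1.79 and −1.46 between the tissues with adjuvant alone, while Mre11a lies at −0.01 and Ankrd49 at −0.19.

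Capg (chr6:72544391-72562983, plus strand) encodes an actin-capping protein of the gelsolin family. In Spl/LN it had 6352, 6306 and 5648 normalized counts with adjuvant alone and 6762, 7836 and 7081 after Fat1562. In VAT it had 8349 and 6977 with adjuvant alone and 9021, 8651 and 8511 after Fat1562. By these normalized counts VAT lay above Spl/LN without overlap under each immunization. By library total alone, replicate 2 of VAT (5594 of 4490242 counts) lay below replicate 1 of Spl/LN (6585 of 5212491) with adjuvant alone. The tissue difference was 1.26-fold with adjuvant alone (log2 fold change 0.33, SE 0.0909, adjusted p = 0.0186 by edgeR) and 1.21-fold after Fat1562 (0.27, SE 0.0818, adjusted p = 0.0318). Both calls were lost with quantile normalization, at 0.01 (adjusted p = 0.973) and 0.16 (adjusted p = 0.162). The first was also lost without replicate 3 of Spl/LN (adjusted p = 0.0598) or replicate 1 of VAT (0.19, adjusted p = 0.314) with adjuvant alone, while without replicate 2 of VAT it was 0.45 (adjusted p = 0.00875). The second was lost without replicates 1 or 3 of Spl/LN or replicates 1 or 2 of VAT, at adjusted p-values from 0.0813 to 0.133. With peptide Capg had 0.19 in VAT (95% confidence interval −0.0064 to 0.38, adjusted p = 0.255) and 0.24 in Spl/LN (0.071 to 0.42, adjusted p = 0.112), neither called, although the libraries did not overlap in either tissue.

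Of 19 genes of the gelsolin family, capping proteins and their actin partners, 18 could be tested. With adjuvant alone 4 were higher and 2 lower in VAT (median log2 fold change 0.11), and after Fat1562 1 was higher and 1 lower (median −0.02). With peptide the list had 4 genes up and 2 down in VAT, against 3 up and 0 down in Spl/LN. Among all tested genes, 16.3% and 15.0% were called between the tissues, and 8.30% and 3.98% with peptide in VAT and Spl/LN. Actg1, which encodes γ-actin, was at 5547 ± 75 in Spl/LN and 10362 ± 1095 in VAT with adjuvant alone (0.90, SE 0.0855, adjusted p = 6.89e-07). Gsn, gelsolin itself, rose in Spl/LN with peptide from 393.4 ± 25.6 to 576.3 ± 14.5 (0.55, SE 0.112, adjusted p = 0.00929), and Twf2, an actin-monomer-binding protein, was lower in VAT after Fat1562 (−0.55, SE 0.103, adjusted p = 0.00118). Of the 6 calls in VAT with peptide, 0 were made by edgeR without replicate 2 of VAT with Fat1562, and 1 without either VAT library with adjuvant alone or without replicate 3 of VAT with Fat1562.

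Other genes that Treg cells express more highly than conventional T cells were compared beside the 8. Of 25 listed, 24 could be tested, and in VAT with adjuvant alone 16 were called higher and 5 lower, with a median log2 fold change of 0.82. After Fat1562 15 were higher and 0 lower, with a median of 0.65. The shares over all tested genes were 9.09% higher and 7.18% lower with adjuvant alone, and 8.26% and 6.73% after Fat1562. Il10, the suppressive cytokine, had the largest difference of the list, from 13.0 ± 4.6 in Spl/LN to 1141 ± 132 in VAT with adjuvant alone (6.45, SE 0.368, adjusted p = 1.00e-09). The IL-2 receptor chain Il2ra was higher by 1.88 (SE 0.160, adjusted p = 1.76e-07), from 2908 ± 274 to 10671 ± 457. The phosphatase gene Dusp4 was higher by 2.33 (SE 0.159, adjusted p = 9.67e-09). Ctla4, an inhibitory receptor, was higher by 1.20 (SE 0.0992, adjusted p = 1.07e-07), while Cd83, an activation marker, was among the 5 lower genes at −1.82 (SE 0.236, adjusted p = 2.70e-05). Nrp1, Gpr83 and Izumo1r, all lower in VAT under each immunization, stood beside a list of which most tested genes were higher there. The 8 genes and this list were chosen with earlier results of these data known, so the contrast is a description only.

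**Figure D5:**
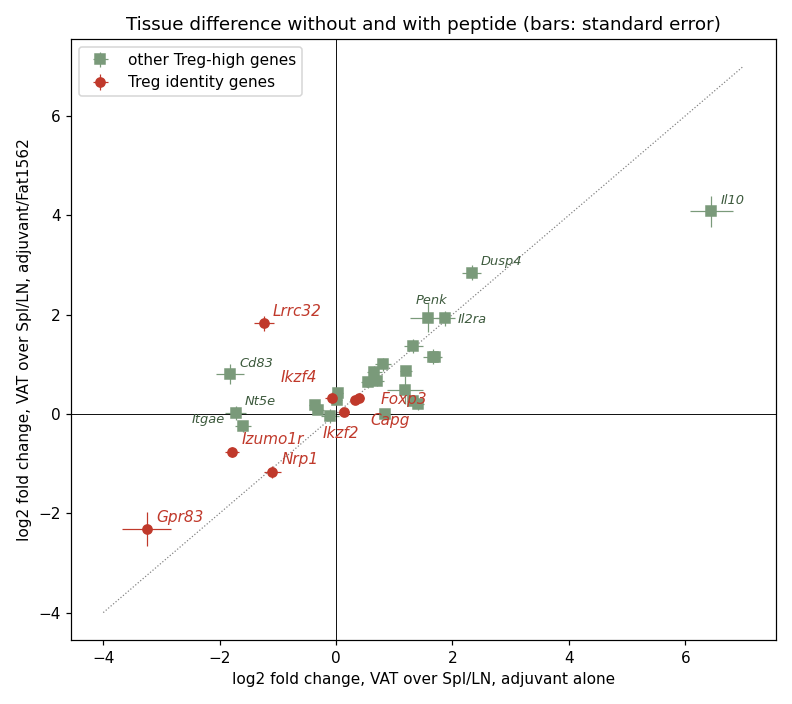
Log2 fold change of VAT over Spl/LN with adjuvant alone (x axis) and after adjuvant/Fat1562 (y axis) for the 8 Treg identity genes (circles) and 24 other Treg-high genes (squares), with standard errors as bars and the line of equal change dotted. The libraries of the axes are separate, Gpr83, Izumo1r and Nrp1 lie below 0 on both axes, and Lrrc32 lies at −1.25 on the first and 1.82 on the second.

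With peptide, 7 of these 24 genes rose and 5 fell in VAT (median log2 fold change 0.12), while 6 rose and 2 fell in Spl/LN (median 0.19). The same fit called 8.30% of all tested genes in VAT and 3.98% in Spl/LN. The ectonucleotidase gene Nt5e rose in VAT from 412.5 ± 25.2 to 1635 ± 160 (1.99, SE 0.185, adjusted p = 2.79e-06), and the inhibitory receptor Tigit rose in VAT (1.38, adjusted p = 5.75e-07) and in Spl/LN (0.84, adjusted p = 5.01e-05). Of the genes that fell in VAT, Il10 went from 1141 ± 132 to 591 ± 288 (−0.95, SE 0.267, adjusted p = 0.0354), a call made in 13 of 19 alternatives and lost, among others, without either VAT library with adjuvant alone, without replicates 2 or 3 of VAT with Fat1562 and with DESeq2. The integrin gene Itgae fell in Spl/LN (−1.41, SE 0.117, adjusted p = 3.40e-06), as did Cd83 (−1.90, SE 0.203, adjusted p = 3.48e-05).

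Of 15 genes that Treg cells express at a lower level than conventional T cells, 10 could be tested, and Il2, Il4, Il21 and Ifng were among those under the filter. In VAT with adjuvant alone 1 was called higher and 2 lower, and after Fat1562 2 were higher and 3 lower. Tcf7, a factor of naive and memory T cells, was at 548.7 ± 82.7 in Spl/LN and 21.4 ± 0.34 in VAT with adjuvant alone (−4.67, SE 0.469, adjusted p = 1.37e-06). Cd40lg, the costimulatory ligand of helper T cells, was higher in VAT with adjuvant alone (1.21, SE 0.244, adjusted p = 0.00196) and fell there with peptide, from 179.7 ± 21.05 to 35.8 ± 1.8 (−2.32, SE 0.255, adjusted p = 1.36e-05). The second gene called higher in VAT after Fat1562, beside Satb1, was Il17a, named after its values were seen. It had 12.6 normalized counts against 0 in the 3 Spl/LN libraries. VAT was near the filter of a mean above 10, which Spl/LN did not reach. Nothing was concluded from this call. In VAT with peptide 1 was higher and 2 lower, and in Spl/LN 0 of the 10 were called by edgeR and by DESeq2, with 3 at an unadjusted p under 0.05. Among all tested genes, edgeR called 16.3% and 15.0% between the tissues, and 8.30% and 3.98% with peptide in VAT and Spl/LN.

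The factors and enzymes that act on Foxp3 or with it were 36 genes, all testable. In VAT with adjuvant alone 3 were called higher and 7 lower (median log2 fold change −0.14), and after Fat1562 5 were higher and 6 lower (median −0.08). Rel, the NF-κB subunit that drives Foxp3 in the thymus, rose from 525.9 ± 51.0 in Spl/LN to 1671 ± 278 in VAT with adjuvant alone (1.67, SE 0.126, adjusted p = 3.61e-08) and from 568.8 ± 30.8 to 2546 ± 275 after Fat1562 (2.16, SE 0.117, adjusted p = 9.41e-10). Gata3 was higher in VAT with adjuvant alone by 1.25 (SE 0.130, adjusted p = 2.07e-06). Among the lower genes with adjuvant alone, Hdac7, a histone deacetylase, was at 604.7 ± 23.1 in Spl/LN and 334.2 ± 24.8 in VAT (−0.86, adjusted p = 0.00104), and Tet1, which oxidizes methylated cytosine, was at 73.5 ± 9.8 and 24.8 ± 9.0 (−1.57, adjusted p = 0.0203), a call lost without replicate 1 of VAT. After Fat1562 Nfatc1, an NFAT factor, was lower in VAT (−0.85, adjusted p = 4.48e-05), as was the forkhead gene Foxp1 (−0.73, adjusted p = 0.00278). With peptide 5 of them rose and 3 fell in VAT, while 3 rose and 1 fell in Spl/LN. The same fit called 16.3% and 15.0% of all tested genes between the tissues, and 8.30% and 3.98% with peptide in VAT and Spl/LN. Foxp1, which supports the binding of Foxp3 to DNA, fell in VAT (−1.32, SE 0.163, adjusted p = 5.23e-05) and in Spl/LN (−1.08, SE 0.144, adjusted p = 0.000254). Nfatc1 rose in Spl/LN (0.73, SE 0.113, adjusted p = 0.000990), and Hdac7 rose in VAT (1.34, SE 0.161, adjusted p = 3.95e-05). Hdac7 also rose in Spl/LN (0.56, SE 0.135, adjusted p = 0.0262 by edgeR), a call made in 13 of 19 alternatives.

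For each of the 8 genes, the tested genes with the most similar pattern over the 11 libraries were taken by Pearson's r of log2(normalized count + 1) among 7365 genes, as a description of libraries that share their groups. The pattern of Foxp3 was nearest to that of Cd44 (r = 0.977, Spearman's rho = 0.964), an activation marker whose group means ran from 2176 in Spl/LN after Fat1562 to 4290 in VAT with adjuvant alone. Nrp1 was nearest to Thada (r = 0.985) and Gpr15 (r = 0.983), a homing receptor that fell from 490.6 to 26.1 normalized counts between the group means of Spl/LN with adjuvant alone and VAT with Fat1562. Gpr83 was nearest to Asap1 (r = 0.975) and Sh2d1a (r = 0.970), Izumo1r to Matk (r = 0.976) and Ephx1 (r = 0.968), and Capg to Hip1 (r = 0.959). Lrrc32 had its nearest match in Erh (r = 0.933), Ikzf4 in Mthfd1 (r = 0.920) and Ikzf2 in AC156031.1 (r = 0.910), and these 3 genes had the weakest matches of the 8.

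Promoter windows of 300 bases were matched for 5 of the 8 genes in the RefSeq table for GRCm38.p6, and Ikzf2, Ikzf4 and Lrrc32 were not matched. The windows were searched on both strands for 9 short motifs that do not overlap each other in the matches found. The TATA motif TATAAA was present for Gpr83 and at the Foxp3 start shown, against 13.6% of 32544 promoter windows, and the GC box GGGCGG was present for Nrp1, against 35.9%. The motifs TGACGTCA (1.80% of windows), TGTTTAC (3.66%), TGTGGTT (5.29%), CCGGAAG (8.91%), TGANTCA (7.79%), CACGTG (7.17%) and CTTTGA (5215 of the windows) were in none of the 5 genes' windows. Izumo1r, Capg and a second Foxp3 start held none of the 9. The G and C content of the windows shown was 67.0% for Gpr83, 64.0% for Nrp1, 52.3% for Izumo1r and 40.7% for Foxp3, against a median of 53.0% over all windows. No motif was shared by Nrp1, Gpr83 and Izumo1r, which says only that these letters are not in these windows.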

How the data were processed

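Treg cells were double-sorted by Moflo, 1000 per library, and Smart-seq2 libraries were made with 18 PCR cycles and sequenced as 38-base paired reads. The authors deposited raw counts per gene, a table of whole numbers for 11 libraries. Their processing notes name STAR 2.5.4, featureCounts and mm10, and their methods Cuffquant. The gene annotation, the strand setting and the handling of reads that genes share are not given in the sources used here, and no molecular identifiers are named, so PCR copies are counted as reads.

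From these counts, one model of the 4 groups was fitted with edgeR 4.0.16 (quasi-likelihood test, TMM) on the 12932 genes whose mean exceeded 10 in at least 1 group, with Benjamini-Hochberg adjustment over all of them. Confidence intervals are 95%. The script was checked on simulated data. Alternatives were no filter, a mean above 50, a coefficient of variation under 0.7, median-of-ratios scaling, quantile normalization with limma 3.58.1 (pseudocount 0.5 on CPM), DESeq2 1.42.0, only the groups compared, the replicate number as a block, and leaving out each library. Positions and exon lengths come from GENCODE M21 (GRCm38, the assembly of mm10) and promoter windows from RefSeq (GRCm38.p6).

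Samples were grouped by the labels. The 8 genes and the 8 lists of related genes were chosen with earlier results of these data known. Genes named from a list are among its up to 4 called genes of largest change per comparison with a mean of at least 50 in a compared group, and the text says where a gene outside this rule was named for its values (so were Tgfb1 and Ctla4). For each of the 8 genes the 3 most similar genes with a mean of at least 100 were taken.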

Additional observations from a re-analysis of the deposited data

Results flagged for a closer look

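The change with Fat1562 differed between VAT and Spl/LN for 16 genes, by the interaction term of edgeR at an adjusted p under 0.05. These were the called ones among the 8 identity genes and up to 4 called genes of largest change per list. The term called 3.72% of all tested genes, 1.70% higher and 2.02% lower. The 16 genes come from chosen lists under that limit, so their number is no share. No group held more than 3 libraries, so single libraries were not tested as outliers. The values are the log2 fold change with peptide in VAT minus that in Spl/LN.

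Lrrc32 had 3.07 and Izumo1r 1.03, each called in 18 of 18 alternatives. Among the other Treg-high genes the values were 2.62 for Cd83, 1.74 for Nt5e, 1.34 for Itgae and −2.37 for Il10, of which the last was lost without replicate 1 of VAT with adjuvant alone. That list had 4 genes called higher and 5 lower. Of the TGF-β genes, Itgb8 had 1.81, Nrros −0.90 and Smad3 −0.85, and the list had 1 higher and 2 lower. Of the Treg-low genes, Cd40lg had −2.05 and Igf1r 1.46, with 1 higher and 1 lower. Of the actin genes, Actg1 had −0.61 and Tmsb4x −0.55, with 0 higher and 2 lower. Of the regulators of Foxp3, Hdac7 had 0.78 and Gata3 −0.66, with 1 higher and 2 lower, and Ikzf3 had 0.56. Of the neuropilin list 0 of 14 were called by edgeR, with 2 at an unadjusted p under 0.05. Smad3, Hdac7, Gata3 and Ikzf3 were called in 8 or 9 of 18 alternatives, and not without replicate 2 of VAT with adjuvant alone, and Igf1r in 12 of 18.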

How the results depend on the processing

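Of 752 refitted effects of the 8 genes, 719 kept their direction and their side of the threshold, 13 lost the call, 7 gained one and 13 changed sign, none of the last called in either fit. Under quantile normalization the sign changed for Ikzf2 between the tissues (−0.21 with adjuvant alone and −0.074 after Fat1562) and for the interactions of Foxp3 (0.059), Ikzf2 (0.13), Nrp1 (0.0021) and Capg (0.16). With 1 library left out, the log2 value ranged from −0.19 to 0.043 for Ikzf4 between the tissues with adjuvant alone, from −0.21 to 0.80 for Gpr83 with peptide in VAT, and in the interaction from −0.22 to 0.076 for Nrp1 and from −0.17 to 0.085 for Capg. The sign changed without replicate 1 of VAT with adjuvant alone for Ikzf4, Gpr83 and Capg, without replicate 2 of VAT with Fat1562 for Gpr83 (−0.10), without replicate 2 of Spl/LN with Fat1562 for Capg (0.0062) and without replicate 1 of that group for Nrp1. The cause was not tested.

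Deviations of same-numbered libraries had correlations of −0.0395 to 0.0554 over all pairs of groups. Only Spl/LN and VAT of the same immunization could share a mouse. There the same-numbered correlations were 0.0373 and 0.0303 with adjuvant alone, and 0.0554, 0.03 and 0.0299 after Fat1562. Different-numbered pairs of these groups ran from −0.0576 to 0.0277. The labels do not say whether same-numbered libraries share a mouse, so the replicate block rests on the number alone. With the block 6, 7, 3, 2 and 2 of the 8 genes were called in the 5 comparisons (tissues with adjuvant alone, tissues after Fat1562, peptide in VAT, peptide in Spl/LN, interaction), the seventh being Ikzf4 (adjusted p = 0.0362), and 1803, 1860, 990 and 515 genes in all, with 437 for the interaction. The block turned the sign of the Nrp1 interaction (0.022).

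With peptide in Spl/LN 793 genes were called with no filter and with DESeq2 against 515, and for the interaction 789 with DESeq2 against 481. Counts per list that moved by over 1.5 times were as follows. The Ikaros list had 0 (only the groups compared) and 1 (block) against 3 between the tissues with adjuvant alone, 2 (quantile, DESeq2, only the groups compared) against 1 after Fat1562, 1 (quantile, DESeq2) against 0 with peptide in Spl/LN, and 0 (block) against 1 for the interaction. The TGF-β list had 2 against 1 with peptide in VAT in 6 settings, and 4 (no filter) or 1 (median-of-ratios, quantile, block) against 2 in Spl/LN. The neuropilin list had 2 (quantile) against 1 with peptide in VAT, and 1 (coefficient of variation) against 0 in Spl/LN and for the interaction. The actin list had 3 (block) against 6 with peptide in VAT, and 7 (no filter) or 1 (quantile) against 3 in Spl/LN. The Treg-low list had 2 (no filter, only the groups compared) or 1 (quantile, block) against 0 in Spl/LN. The Foxp3 regulators had 5 (no filter, mean above 50), 6 (coefficient of variation, DESeq2) or 0 (block) against 3 for the interaction.

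With 1 library left out, and in the same order of comparisons, 5 to 6, 5 to 7, 2 to 3, 1 to 2 and 2 to 2 of the 8 genes were called, and 1259 to 2114, 1289 to 2378, 508 to 1394, 190 to 502 and 240 to 576 genes in all. The lowest of these came without replicate 1 of VAT with adjuvant alone (1259 and 240), replicate 2 of VAT with Fat1562 (1289), replicate 2 of VAT with adjuvant alone (508) and replicate 2 of Spl/LN with Fat1562 (190). The Ikaros list had 0 to 3, 0 to 2, 0 to 0, 0 to 0 and 0 to 1, the Foxp3 regulators 7 to 11, 7 to 13, 4 to 10, 2 to 5 and 0 to 4, and the other Treg-high genes 19 to 21, 14 to 16, 7 to 13, 7 to 10 and 7 to 9. The Treg-low list had 3 to 4, 2 to 5, 2 to 4, 0 to 1 and 1 to 3, the TGF-β list 5 to 7, 7 to 8, 1 to 2, 1 to 3 and 2 to 4, the neuropilin list 3 to 5, 3 to 4, 1 to 1, 0 to 1 and 0 to 0, and the actin list 4 to 6, 1 to 3, 0 to 6, 1 to 4 and 0 to 2. Only 2 libraries of VAT with adjuvant alone were available, and leaving out either leaves 1, which is then assumed to vary like the other groups. At 16 to 42 raw counts per VAT library, Gpr83 was measured least precisely.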
